A study of Mus musculus with 9 samples.

Results

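Metallothioneins and zinc transporters are described here through 10 genes of the 25759 in the deposited table: the metallothionein genes Mt1 and Mt2, Mtf1, the zinc exporter family genes Slc30a1, Slc30a5 and Slc30a7, and the zinc importer family genes Slc39a1, Slc39a6, Slc39a10 and Slc39a14. The genes were selected on their FPKM values and differences in the same 9 libraries, which were known when they were listed, so their levels and differences are given as a description and without a test. All 10 were in the table and all 10 passed the filter on low values, a mean across all 9 libraries of 0.5 FPKM or more, where FPKM is the number of fragments scaled to transcript length and library size. Mt2 passed it only through the activated groups, and the naive mean of Mt1, 0.529 FPKM, was barely above it.

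RNA sequencing covered 3 groups of 3 libraries of mouse CD4+ T cells from lymph node and spleen. Naive wild-type (WT) cells were sorted as CD44-, CD62+ and negative for a Foxp3GFP reporter. Activated WT cells and their counterparts from a BMPR1a/CD4cre conditional knockout, called the knockout below, were sorted as CD44+, CD62L- and Foxp3GFP- after 3 days of culture of unsorted lymph node and spleen cells with 2 ug/ml of the mitogen ConA and 10 ng/ml of LPS. All mice were labelled C57BL/6, were 8 to 12 weeks old and carried the Foxp3GFP reporter transgene. In the knockout line Cre recombinase is driven by the Cd4 promoter, which is also active in the CD4+CD8+ precursors in the thymus, so cells of the CD8 lineage carry the deletion too. No knockout library of naive cells was analysed here. Nothing in the labels says whether the replicates came from separate mice, so every p-value rests on the spread among these libraries alone, which may be technical.

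Zinc is a structural or catalytic part of a large share of cellular proteins, and its free level in the cytosol is kept very low. ZIP proteins, encoded by the Slc39a genes, bring zinc into the cytosol from outside the cell or from organelles, and ZnT proteins, encoded by the Slc30a genes, move it out of the cytosol. Metallothioneins are small cysteine-rich proteins that bind zinc and copper. MTF1, the product of Mtf1, senses zinc and binds metal response elements in the promoters of Mt1, Mt2 and Slc30a1. In T cells, zinc entering through ZIP proteins on stimulation is known to enhance signalling from the antigen receptor.

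The coding sequences of Mt1 and Mt2, taken from the GENCODE M21 transcripts of GRCm38, are shown because the results turn on these genes and because their likeness bears on how reads can be told apart. Capitals mark the in-frame TGC and TGT codons, which encode cysteine.
Mt1: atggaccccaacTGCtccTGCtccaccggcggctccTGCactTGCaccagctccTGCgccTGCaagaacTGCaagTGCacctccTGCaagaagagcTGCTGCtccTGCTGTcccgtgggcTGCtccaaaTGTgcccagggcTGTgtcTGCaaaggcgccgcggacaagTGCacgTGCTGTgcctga
Mt2: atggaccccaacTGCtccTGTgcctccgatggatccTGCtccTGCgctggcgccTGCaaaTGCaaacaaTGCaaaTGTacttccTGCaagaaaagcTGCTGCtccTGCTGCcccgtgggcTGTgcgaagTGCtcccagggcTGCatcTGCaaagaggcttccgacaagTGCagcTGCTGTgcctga
Each coding sequence is 186 bases long and holds 20 cysteine codons, and all 20 stand at the same places in both. The sequences are identical at 148 of 186 bases (79.6%). The longest run of bases shared by the full transcripts that these coding sequences came from is 20. A read longer than that run differs between those transcripts in at least 1 base. They are short, 549 bases for Mt1 and 511 for Mt2, and FPKM estimates of short transcripts are less stable than those of long ones. Other transcripts of the genes, among them an Mt1 transcript of 1085 bases, were not compared.

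The stretches before the start sites of Mt1, Mt2 and Slc30a1, textbook targets of MTF1, are shown with the letters of the metal response element core. They were taken from RefSeq promoter windows of GRCm38.p6, which run from 250 bases before to 50 bases after the annotated start, and only the 250 bases before the start are printed. The motif was searched as TGCACNC and TGCGCNC on both strands, and capitals mark the matches as they read on the gene's strand. No matches in the windows described overlap each other. The sequences are those at chr8:94178839-94179088 for Mt1, chr8:94172368-94172617 for Mt2 and chr1:191906531-191906780 for Slc30a1, all on the plus strand.
Mt1: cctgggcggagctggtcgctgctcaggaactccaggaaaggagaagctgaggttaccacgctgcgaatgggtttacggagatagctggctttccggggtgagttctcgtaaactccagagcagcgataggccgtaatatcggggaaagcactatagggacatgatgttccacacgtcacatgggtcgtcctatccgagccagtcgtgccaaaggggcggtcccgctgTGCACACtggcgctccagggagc
Mt2: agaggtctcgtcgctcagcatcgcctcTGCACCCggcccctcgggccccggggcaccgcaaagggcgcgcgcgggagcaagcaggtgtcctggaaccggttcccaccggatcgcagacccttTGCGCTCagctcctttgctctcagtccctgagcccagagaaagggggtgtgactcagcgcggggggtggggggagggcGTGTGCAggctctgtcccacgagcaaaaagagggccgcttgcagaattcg
Slc30a1: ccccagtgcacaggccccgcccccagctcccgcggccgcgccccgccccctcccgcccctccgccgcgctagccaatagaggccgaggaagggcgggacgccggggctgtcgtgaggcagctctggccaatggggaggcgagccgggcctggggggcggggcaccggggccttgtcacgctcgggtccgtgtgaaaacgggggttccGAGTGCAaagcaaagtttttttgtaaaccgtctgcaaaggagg
Counting the first transcribed base as 1 and the base before it as -1, the whole Mt1 window held 3 matches, at -23 to -17, 3 to 9 and 21 to 27. The Mt2 window held 4, at -223 to -217, -128 to -122, -50 to -44 and 5 to 11. Slc30a1 held 2, at -43 to -37 and 31 to 37, and Slc30a5 held 1, at -48 to -42. The windows of Mtf1, Slc30a7 and Slc39a1 and both windows of Slc39a10 held none of these letters. Of 32817 RefSeq windows of the same length, 25.7% held at least 1 match, 7.12% at least 2, 1.97% at least 3 and 0.518% at least 4. Windows were found for 8 of the 10 genes, and not for Slc39a6 and Slc39a14. The positions above count from the RefSeq starts. RefSeq places the start of Mt1 at 94179089 on chromosome 8, while its GENCODE transcripts start at 94179082, 94179211 and 94179241. The window thus covers the stretch before the first of these. It ends at 94179138, so the bases right before the later starts were not searched. For Mt2 the RefSeq start is 94172618, while its GENCODE transcripts start at 94172664 and 94172860. That window ends at 94172667, so most of the stretch before the later start was not searched.

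**Figure D1:**
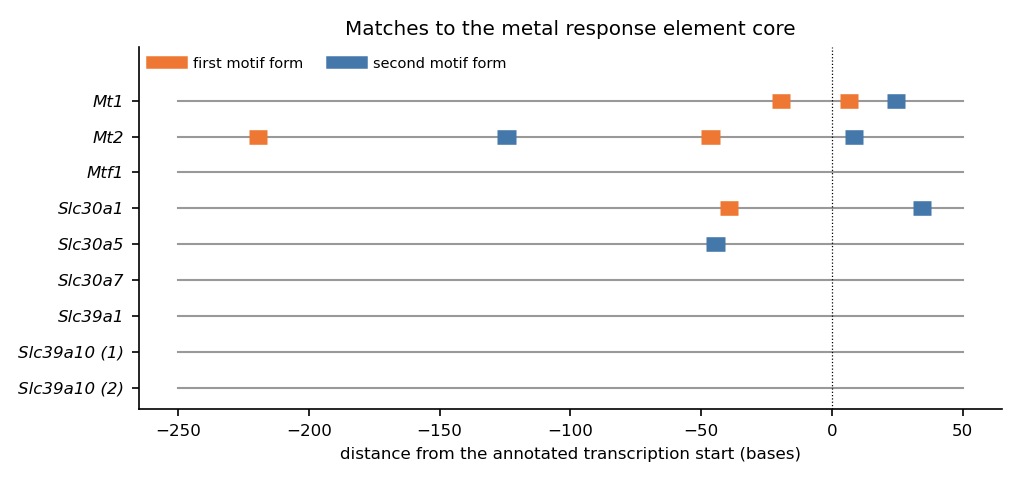
Positions of matches to the metal response element core in the RefSeq promoter windows of 8 genes (Slc39a10 has 2 windows). The x axis is the distance in bases from the annotated start; orange bars are matches to TGCACNC and blue bars to TGCGCNC on either strand. Mt2 holds 4 matches, Mt1 3, Slc30a1 2 and Slc30a5 1.

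The libraries were of even breadth, with 12922 to 13395 genes at or above 1 FPKM, and the number of reads behind them is unknown because FPKM keeps no counts. The T cell markers Cd3d, Cd3e, Cd3g, Cd2, Cd5, Cd28 and Cd4 were high in every library, with a summed level of 1740 to 2530 FPKM. Bmpr1a, the targeted gene, was at 0.460, 0.311 and 0.336 FPKM in naive WT, 2.16, 2.92 and 1.40 in activated WT and 0.957, 1.93 and 1.2 in knockout libraries. Activated WT and knockout libraries overlapped, and a gene-level value also counts exons outside a deleted part. Markers of other cells differed between naive and activated WT libraries. The sum of 7 neutrophil markers was 58.0 to 690 FPKM in naive and 0.0612 to 0.748 in activated WT, with Camp and Ngp listed at 0 in all 3 activated WT libraries. The sum of 7 macrophage and monocyte markers was 19.4 to 186 in naive and 4.25 to 6.41 in activated WT. The 2 CD8 genes, Cd8a and Cd8b1, both rose, from a sum of 9.48 to 41.4 FPKM to one of 147 to 230. The sum of 6 B cell markers was 3.13 to 183 in naive and 140 to 177 in activated WT, and none was called. Erythroid markers (6 genes, 63.6 to 84.2 FPKM in naive and 0.816 to 1.02 in activated WT) and NK cell markers (4 genes, 8.06 to 44.8 and 1.03 to 3.6) did not overlap either, with naive WT higher. Many of the neutrophil, macrophage, erythroid and NK cell markers passed the filter only through the naive libraries, so their calls are not counted. Dendritic cell markers summed to at most 6.37 FPKM and stromal markers to at most 0.296 in any library. In the knockout libraries the sums were 0.284 to 1.11 for neutrophil, 3.88 to 5.73 for macrophage and monocyte, 220 to 279 for CD8 and 130 to 196 for B cell markers, and no marker was called against activated WT. The part of these cells in the results below was not tested.

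The metallothionein genes were almost silent in naive cells and abundant in activated ones. Mt1 (ENSMUSG00000031765) lies on chromosome 8 at 94179082 to 94180327 on the plus strand of GRCm38. It was at 0.60, 0.812 and 0.174 FPKM in naive WT libraries 1, 2 and 3, at 109, 119 and 36.8 in activated WT and at 42.4, 109 and 65.8 in knockout libraries. The lowest activated library, activated WT 3, lay far above the highest naive one. The means were 0.529 ± 0.325, 88.2 ± 44.8 and 72.6 ± 34 FPKM (SD, n = 3 each), and the ratio of the activated WT to the naive mean was 167. On the log2(FPKM + 1) scale, which understates changes from levels this low, the difference between activated and naive WT was 5.72 (SE 0.49). The activated cells also differ from the naive ones in having been cultured and in the sort, which cannot be told apart from stimulation. In bulk samples fewer cells of a type and less RNA per cell cannot be told apart either.

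Mt2 (ENSMUSG00000031762, chromosome 8, 94172664 to 94173568, plus strand), which encodes the other widely expressed metallothionein, followed Mt1. Its level was 0.246, 0.173 and 0.167 FPKM in naive WT, 54.8, 75.0 and 14.6 in activated WT, and 14.8, 51.5 and 22.8 in knockout libraries. Again all 6 activated libraries lay above all 3 naive ones, and activated WT 3 and knockout 1 were the lowest of the 6. The means were 0.195 ± 0.0441, 48.2 ± 30.7 and 29.7 ± 19.3 FPKM, with a ratio of 246 between activated and naive WT and a log2(FPKM + 1) difference of 5.08 (SE 0.62). An antisense gene, Gm45774, overlaps Mt2 over 749 bases on the minus strand and has no row of its own. Since the strand setting is not given in the sources used here, reads from it cannot be told apart from Mt2.

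**Figure D2:**
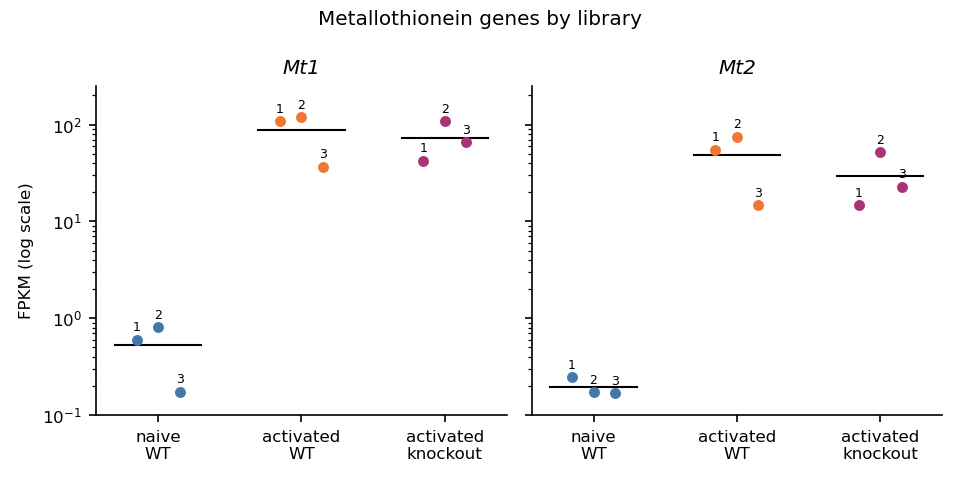
Level of Mt1 and Mt2 in each library, in FPKM on a log axis; points are libraries with their replicate number and black lines are group means (n = 3). All naive WT points lie under 1 FPKM and all activated points above 10, and activated WT and knockout points overlap.

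Among the 15126 genes tested, Mt1 stood at ranks 13195 to 14535 by level in the naive libraries and at ranks 980 to 2939 in the activated WT libraries, and Mt2 moved from 14332 to 14550 to ranks 1511 to 6137. Mt1 was above Mt2 in every library. Its share of the summed Mt1 and Mt2 level was 66.6%, 61.3% and 71.6% in activated WT and 74.1%, 68.0% and 74.3% in knockout libraries. These ranges overlap, since knockout 2 lies below activated WT 3. Without naive WT 2, the library with the most neutrophil transcripts, the difference between activated and naive WT was 5.85 for Mt1 and 5.07 for Mt2.

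Between the activated groups the metallothionein genes overlapped. The difference of knockout minus activated WT was -0.21 (SE 0.49) for Mt1 and -0.58 (SE 0.62) for Mt2 on the log2(FPKM + 1) scale, less than the spread between libraries of a group. Leaving out activated WT 1, activated WT 2 or knockout 1 turned the Mt1 difference to 0.03, 0.09 or 0.12, and leaving out activated WT 3 made it -0.75. For Mt2 the difference without activated WT 3 was -1.27 and without activated WT 2 it was -0.13.

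The spread within each activated group was wide and shared by Mt1 and Mt2. As a share of the mean over the 6 activated libraries, Mt1 was at 136%, 147% and 45.7% in activated WT and at 52.8%, 136% and 81.9% in knockout libraries. Mt2 was at 141%, 193% and 37.5% and at 38.0%, 132% and 58.7%. Activated WT 1 and 2 and knockout 2 were thus high for both genes, and activated WT 3 and knockout 1 and 3 were low.

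The 5 genes most like Mt1, by Pearson correlation of log2(FPKM + 1) over the 9 libraries among 8333 candidates at a mean of at least 5 FPKM, were Gapdh (r = 0.996), Srp72 (0.993), Cenpf (0.993), Ctnna1 (0.992) and Pgd (0.992). For Mt2 they were Impa2 (r = 0.991), Pkm (0.990), Prelid2 (0.990), Pgk1 (0.989) and its related sequence Pgk1-rs7 (0.989). The correlation between Mt1 and Mt2 themselves was 0.991. These libraries fall into a naive and an activated cluster, so the correlation mainly reflects the step between the clusters and is given only as a measure of likeness. Gapdh, Pkm and Pgk1 encode enzymes of glycolysis, and Pgd encodes an enzyme of the pentose phosphate pathway. Gapdh was at 85.1, 92.1 and 89.6 FPKM in naive WT, 819, 803 and 498 in activated WT and 549, 786 and 548 in knockout libraries. Pgk1 was at 56.7, 56.0 and 64.1, then 714, 739 and 355, then 472, 621 and 380. Both had activated WT 1 and 2 and knockout 2 as the highest libraries, as Mt1 and Mt2 did, but over a narrower span. The genes were picked for likeness over these same libraries, so the shared order follows in part from that choice and is not separate evidence. The highest of the 6 activated libraries was 1.64 times the lowest for Gapdh and 2.08 times for Pgk1, against 3.22 for Mt1 and 5.13 for Mt2. Pgk1 and Pgk1-rs7 are near-identical copies, so their values are uncertain.

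**Figure D3:**
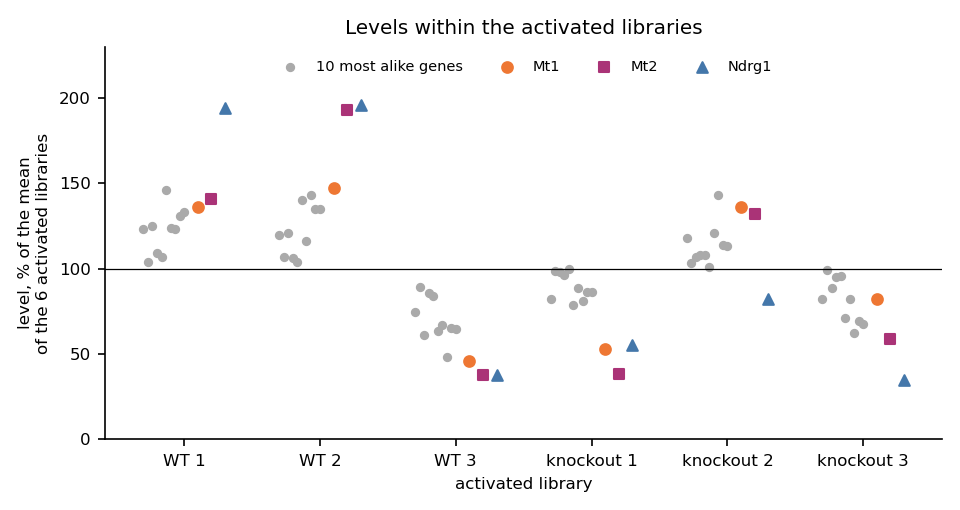
Level in each of the 6 activated libraries as a percentage of the gene's mean over these libraries, for Mt1, Mt2, Ndrg1 and the 10 genes most like Mt1 or Mt2 (grey). All 13 genes lie under 100% in activated WT 3 and knockout 1 and 3, and all except Ndrg1 lie above 100% in knockout 2. The 10 grey genes were picked for likeness to Mt1 or Mt2 over libraries that include these 6, so their pattern follows in part from that choice.

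Mtf1 (ENSMUSG00000028890, chromosome 4, 124802104 to 124849800, plus strand), the zinc sensor, was at 7.58, 10.9 and 7.47 FPKM in naive WT, 6.52, 6.33 and 9.22 in activated WT, and 9.73, 9.41 and 10.3 in knockout libraries. Naive and activated WT libraries overlapped (8.66 ± 1.98 and 7.36 ± 1.61 FPKM, log2(FPKM + 1) difference -0.21, SE 0.17). In unscaled FPKM all 3 knockout libraries lay above the 3 activated WT libraries, at the nearest 9.41 against 9.22 FPKM. The knockout mean was 9.80 ± 0.429 and the difference 0.39 (SE 0.17). Scaling factors between libraries, taken as medians of ratios, were 0.971 to 0.982 in activated WT and 1.02 to 1.04 in the knockout. Dividing by these factors would make the Mtf1 groups overlap. The gene 1110065P20Rik overlaps the end of Mtf1 over 721 bases on the other strand, and was at 6.63, 6.12 and 7.41 FPKM in activated WT and 7.39, 9.20 and 9.43 in knockout libraries.

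Slc30a1 encodes ZnT1, which exports zinc across the plasma membrane and is a target of MTF1. Unlike Mt1 and Mt2, it was lower in activated than in naive cells. The gene (ENSMUSG00000037434) lies on the plus strand of chromosome 1 at 191906767 to 191913247. Its level was 8.33, 9.80 and 7.42 FPKM in naive WT, 1.85, 3.27 and 2.84 in activated WT and 2.87, 3.02 and 3.27 in knockout libraries. Every activated library was below every naive one, and the activated groups overlapped. The naive mean of 8.51 ± 1.2 was 3.21 times the activated WT mean of 2.65 ± 0.730 (log2(FPKM + 1) difference -1.39, SE 0.16). An antisense transcript, 1700034H15Rik, overlaps its first 761 bases and was at most 0.357 FPKM in any library.

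Slc30a5 (ENSMUSG00000021629) and Slc30a7 (ENSMUSG00000054414) encode ZnT5 and ZnT7, which load zinc into the early secretory pathway, where enzymes such as alkaline phosphatases receive it. Slc30a5 was at 21.9, 21.1 and 21.4 FPKM in naive WT, 15.5, 15.4 and 16.9 in activated WT and 18.1, 19.7 and 19.9 in knockout libraries. The 3 groups did not overlap, with naive WT highest and the knockout between the others. Means were 21.5 ± 0.379, 15.9 ± 0.822 and 19.2 ± 0.988 FPKM, giving log2(FPKM + 1) differences of -0.41 (SE 0.06) for activated minus naive WT and 0.26 (SE 0.06) for knockout minus activated WT. Slc30a7 stepped down in both comparisons without overlap. It was at 8.66, 8.55 and 7.29 FPKM in naive WT, 6.30, 6.57 and 6.21 in activated WT and 6.01, 5.64 and 5.65 in knockout libraries, with differences of -0.31 (SE 0.08) and -0.12 (SE 0.08). Slc30a5 lies on chromosome 13 at 100802648 to 100833427 and Slc30a7 on chromosome 3 at 115938973 to 116007406, both on the minus strand.

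The importers split into a pair that was higher and a pair that was lower in activated cells. Slc39a1 (ENSMUSG00000052310, chromosome 3, 90248172 to 90253612, plus strand) encodes ZIP1, an importer of the plasma membrane. It was at 15.6, 14.4 and 16.8 FPKM in naive WT, 25.4, 26.3 and 26.9 in activated WT and 30.0, 25.9 and 27.6 in knockout libraries. Activated libraries of both genotypes were above all naive ones and overlapped each other, and the activated WT mean of 26.2 ± 0.754 was 1.67 times the naive mean of 15.6 ± 1.21 (log2(FPKM + 1) difference 0.71, SE 0.08).

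Slc39a6 (ENSMUSG00000024270, chromosome 18, 24579881 to 24603817, minus strand) encodes ZIP6, another plasma membrane importer. Its level was 7.83, 7.62 and 7.40 FPKM in naive WT, 10.3, 10.6 and 11.6 in activated WT, and 14.8, 18 and 14.4 in knockout libraries. The groups formed 3 steps without overlap, at means of 7.62 ± 0.214, 10.9 ± 0.675 and 15.7 ± 1.98 FPKM. The log2(FPKM + 1) difference was 0.46 (SE 0.09) for activated minus naive WT and 0.49 (SE 0.09) for knockout minus activated WT, the latter a ratio of means of 1.45. Elp2 overlaps Slc39a6 over 952 bases on the opposite strand, and was at 26.6, 25.9 and 28.7 FPKM in activated WT and 30.6, 31.0 and 32.5 in knockout libraries. Those Elp2 values also do not overlap between the activated groups, and the part of shared reads was not tested.

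Slc39a10 (ENSMUSG00000025986, chromosome 1, 46807544 to 46892852, minus strand) encodes ZIP10, the closest relative of ZIP6, and had the opposite sign on activation. It was at 6.24, 5.07 and 5.12 FPKM in naive WT, 3.26, 3.47 and 3.09 in activated WT and 4.27, 4.47 and 3.43 in knockout libraries. The naive libraries were highest, and knockout 3 overlapped the activated WT group. Differences were -0.60 (SE 0.11) for activated minus naive WT and 0.24 (SE 0.11) for knockout minus activated WT. Slc39a14 (ENSMUSG00000022094, chromosome 14, 70303469 to 70351425, minus strand) encodes ZIP14, which also carries iron and manganese. Its values were 7.16, 6.71 and 5.85 FPKM in naive WT, 4.40, 4.70 and 5.01 in activated WT and 4.66, 7.14 and 5.31 in knockout libraries. Naive and activated WT did not overlap (difference -0.41, SE 0.14), whereas the knockout libraries spanned the range from activated WT to naive (knockout minus activated WT 0.22, SE 0.14).

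**Figure D4:**
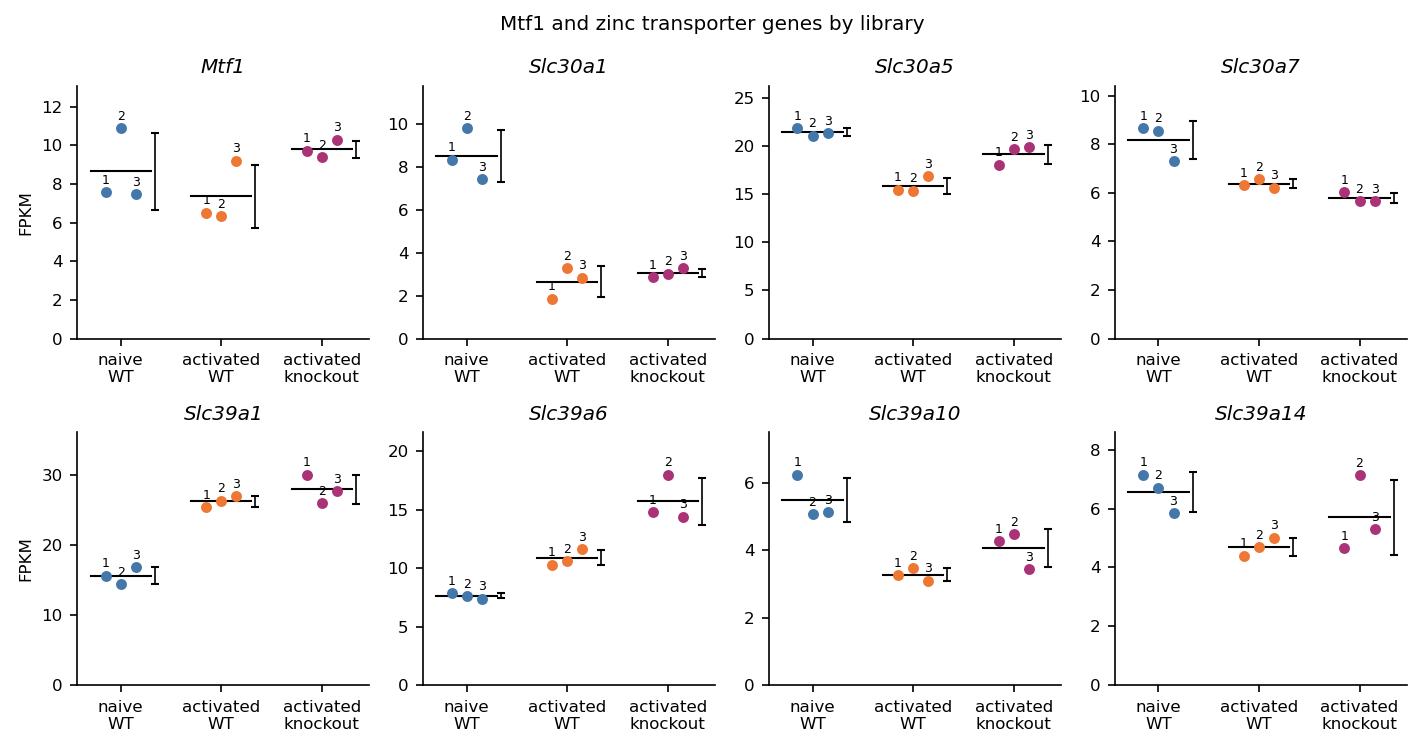
Level in FPKM of Mtf1 and the 7 transporter genes in each library. Points are libraries with their replicate number, lines are group means and bars are the SD (n = 3). Slc39a6 forms 3 separate steps upward, Slc30a1 is lower in all 6 activated libraries, and Slc30a5 in the knockout lies between activated and naive WT.

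By level per length, the order of the 10 genes changed with activation. In naive cells Slc30a5 led at 21.5 FPKM, followed by Slc39a1, and Mt1 and Mt2 were last. The ranges of Mtf1, Slc30a1, Slc30a7 and Slc39a6, at means between 7.62 and 8.66 FPKM, could not be ordered because each overlapped the next. In activated WT cells Mt1 and Mt2 were first and second by their means, but their ranges overlapped each other, and that of Mt2 overlapped Slc39a1 at 26.2 FPKM. Slc30a1 was last at 2.65, overlapping Slc39a10 at 3.27. The knockout had the same order of means as activated WT.

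As a description, limma called 9 of the 10 genes in the comparison of activated with naive WT, 4 higher and 5 lower, where 52% of all 15126 tested genes were called, 26.2% higher and 25.8% lower. The same 9 genes, all except Mtf1, did not overlap between the groups, against 59.4% of all tested genes, 29.6% higher and 29.8% lower. The median difference over the 10 genes was -0.26, against -0.01 over all tested genes. The call of Slc39a14 was lost in 9 of 17 alternatives, among them leaving out naive WT 1 or 2, any activated WT library or knockout 3, at differences of -0.44 to -0.35. For knockout minus activated WT, 1 of the 10, Slc39a6, was called, higher, where 4.14% of all tested genes were called, 3.3% higher and 0.84% lower. That call was lost in 12 of 17 alternatives, at differences of 0.39 to 0.55, among them both scalings between libraries and leaving out naive WT 1 or 2, any activated WT library or knockout 2 or 3. The count of all genes called in this comparison, 626, ranged from 64 without activated WT 2 to 1037 without knockout 1. In unscaled FPKM, groups did not overlap for 4 of the 10, 3 higher (Mtf1, Slc30a5 and Slc39a6) and 1 lower (Slc30a7), against 31.2% of all tested genes, 22.8% higher and 8.36% lower. Scaling by medians of ratios would make the Mtf1 groups overlap. The median difference was 0.19 over the 10 genes and 0.06 over all. Since the genes were listed with these values known, nothing is read from the counts.

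The remaining metallothioneins and zinc transporters, 19 genes, show what the rest of the family did. They are the ones left after the 10 were chosen, so their share of calls is not that of the whole family. Of the 19, Mt4 and Slc39a12 were not analysed here, 6 were under the filter with at most 0.985 FPKM in any library (Slc30a2, Slc30a3, Slc30a8, Slc30a10, Slc39a2 and Slc39a5), and 11 were tested. In activated against naive WT, 3 were called higher and 4 lower by limma at an adjusted p under 0.05, again against 52% of all genes, 26.2% higher and 25.8% lower. One of the 3, Mt3, passed the filter only through the activated groups. The median difference of the 11 genes was -0.01.

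Mt3, a metallothionein gene best known from the brain that lies beside Mt2 on chromosome 8 (94152607 to 94154146), was listed at 0 in all 3 naive libraries. It was at 1.25, 1.37 and 0.219 FPKM in activated WT and at 1.44, 2.67 and 2.10 in knockout libraries. Activated WT 3 was again the lowest activated library. Since the filter admitted Mt3 through its high groups, its call (limma adjusted p = 0.0214) is given as a description. The call was lost on leaving out any naive library or activated WT 1 or 2, at limma adjusted p of up to 0.0724. In unscaled FPKM the knockout libraries lay above the activated WT ones, at the nearest 1.44 against 1.37, but the difference did not pass (limma adjusted p = 0.152).

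Slc30a4, which encodes ZnT4 of endosomes and lysosomes, rose from 4.01 ± 0.264 to 9.20 ± 0.587 FPKM (log2(FPKM + 1) difference 1.03, SE 0.17, limma adjusted p = 0.00182). Slc39a4, which encodes the importer of dietary zinc in the intestine, rose from 1.41 ± 0.363 to 4.24 ± 0.421 FPKM (difference 1.13, SE 0.12, limma adjusted p = 0.000168). In the knockout Slc39a4 was at 6.32, 6.46 and 6.65 FPKM, above all activated WT libraries, yet the difference of 0.51 (SE 0.12) missed the threshold (limma adjusted p = 0.0523). It passed with array quality weights and without naive WT 3 (limma adjusted p = 0.0106 and 0.0345).

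The falls were led by Slc39a11, from 9.22 ± 1.35 to 3.68 ± 0.793 FPKM (difference -1.13, SE 0.16, limma adjusted p = 0.000757). Slc39a7, which encodes ZIP7, the protein that releases zinc from the endoplasmic reticulum, had the highest level of all zinc transporter genes in each group. It fell from 57.5 ± 5.0 to 36.4 ± 3.81 FPKM (difference -0.65, SE 0.09, limma adjusted p = 0.000792). Slc39a3 fell from 9.43 ± 1.39 to 6.4 ± 0.60 FPKM (limma adjusted p = 0.0109). Slc39a13 fell from 9.65 ± 0.866 to 7.02 ± 1.51 FPKM (limma adjusted p = 0.0288), a call lost in 7 of 17 alternatives, among them leaving out any naive library or activated WT 1 or 2 (limma adjusted p of up to 0.0867).

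Slc30a6, the partner of ZnT5 in a heterodimer, averaged 5.94 ± 0.759 FPKM in naive WT and 4.98 ± 0.399 FPKM in activated WT libraries (limma adjusted p = 0.119). Slc30a9 was at 18.5 ± 3.97 and 22.2 ± 2.64 FPKM (limma adjusted p = 0.196). Slc39a9 was at 9.21 ± 1.05 and 9.07 ± 0.294 FPKM (limma adjusted p = 0.907). Slc39a8, which encodes the lysosomal zinc importer ZIP8 of T cells, was at 1.41 ± 0.212 and 2.56 ± 0.0867 FPKM without overlap, and missed the threshold (limma adjusted p = 0.0996). It passed when knockout 2, at 6.35 FPKM against 2.35 and 3.11 in the other knockout libraries, was left out of the shared fit (limma adjusted p = 0.00557). Leaving out naive WT 2 added calls for Slc30a6 and Slc30a9 (limma adjusted p = 0.0392 and 0.0316).

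None of the 11 genes was called between knockout and activated WT by limma, where 4.14% of all genes were, and 3 of 11 had an unadjusted p under 0.05, against 25% of all genes. In unscaled FPKM the groups did not overlap for 3 of the 11, Mt3, Slc39a4 and Slc39a9, all higher in the knockout, against 31.2% of all genes, 22.8% higher and 8.36% lower. Mt3 passed the filter only through the activated groups. Scaling by medians of ratios would make the groups of Mt3 and Slc39a9 overlap. Summed over the 13 Slc39a genes in the table, the level was 134 ± 1.88 FPKM in naive WT, 115 ± 7.19 in activated WT and 132 ± 5.17 in the knockout. This sum mixes genes that moved in both directions. Its largest part, Slc39a7, averaged 57.5, 36.4 and 40.7 FPKM in these groups, while Slc39a1 averaged 15.6, 26.2 and 27.9. The 10 Slc30a genes summed to 66.7 ± 4.61, 61.5 ± 2.19 and 64.7 ± 5.68 FPKM. Beside these sums, Mt1 and Mt2 together went from at most 0.985 FPKM in a naive library to between 51.4 and 194 in activated WT libraries.

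**Figure D5:**
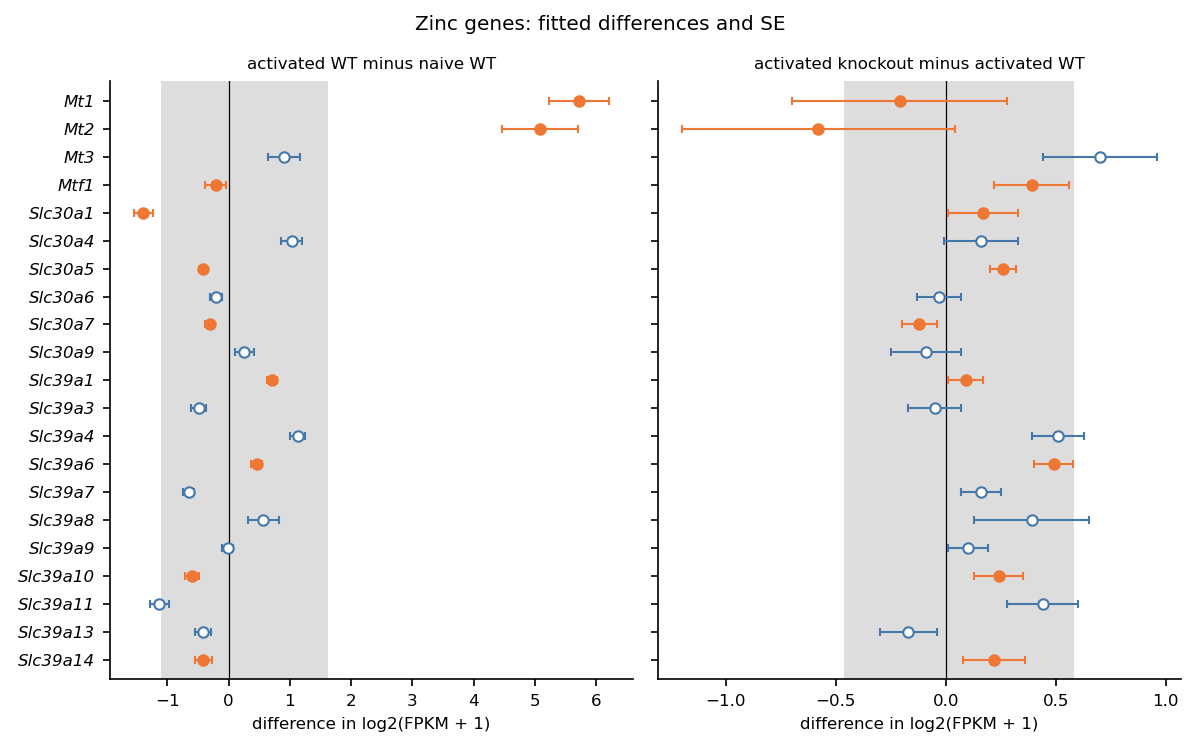
Fitted difference in log2(FPKM + 1) with its SE for the 10 genes described (filled orange) and the 11 other tested zinc genes (open blue), for activated minus naive WT on the left and knockout minus activated WT on the right. Grey bands span the 5th to the 95th percentile of all 15126 tested genes; on the left Mt1 and Mt2 lie far to the right of the band, and Slc30a1 and Slc39a11 to its left.

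Genes linked to the same regulator or to related metals moved in both directions on activation. The counts below stand beside the 52% of all tested genes called in this comparison, 26.2% higher and 25.8% lower. Of 4 genes reported to respond to MTF1, Ndrg1 and Csrp1 rose, Gclc, a subunit of the enzyme that starts glutathione synthesis, fell, and Selenow did not pass. Ndrg1 also responds to low oxygen. It was at 6.29, 4.93 and 6.28 FPKM in naive WT, 69.3, 69.9 and 13.3 in activated WT and 19.7, 29.3 and 12.4 in knockout libraries. Activated WT 3 was thus the low library of its group for Ndrg1, but the highest for Gclc and Selenow. In activated WT, Gclc was at 8.91, 9.01 and 11.1, Selenow at 194, 192 and 231 and Csrp1 at 86.3, 73.5 and 73.1 FPKM. Csrp1 went from 37.8 to 77.6 FPKM (difference 1.02) and Gclc from 16.5 to 9.67 (difference -0.72). Of 11 tested copper handling genes 7 rose and 3 fell, with Ccs, the copper chaperone of superoxide dismutase (29.5 to 64.8 FPKM, difference 1.08), and Sod1 (186 to 316, difference 0.77) ahead among the rises. Among the falls were Slc31a2 (5.70 to 3.57, difference -0.55) and Cox11 (5.16 to 3.99, difference -0.31). Of 14 tested iron genes 6 rose and 3 fell, among the rises Tfrc, the transferrin receptor (13.8 to 50.3 FPKM, difference 1.80), and Hmox1, which breaks down haem (2.38 to 5.79, difference 1.04). Steap3, also counted among the rises, had a naive mean of 0.285 FPKM and passed the filter only through the activated groups. Among the falls were Slc25a37, an iron importer of mitochondria (13.3 to 9.06, difference -0.52), and Ireb2, an iron-regulated RNA-binding protein (17.6 to 13.2, difference -0.39). Glucocorticoids also induce metallothionein genes. Of 8 tested glucocorticoid genes 3 rose and 4 fell, with the gene of the glucocorticoid receptor itself counted among the falls. Fkbp5 was at 23.3 and 44.5 FPKM (difference 0.95), Tsc22d3 at 171 and 38.4 (difference -2.05) and Sgk1 at 43.7 and 13.5 (difference -1.62). The limma adjusted p of the genes named with a difference in these 4 lists was at most 0.036. Between knockout and activated WT none of the genes in these 4 lists was called by limma. An unadjusted p under 0.05 was reached by 1 of the 4 MTF1 genes, 5 of the 11 copper genes, 5 of the 14 iron genes and 1 of the 8 glucocorticoid genes, against 25% of all tested genes.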

How the data were processed

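RNA of 9 libraries in 3 groups of 3 was sequenced, and the deposited values are FPKM per gene. Reads were mapped to GRCm38, and TopHat2, Cufflinks and Cuffdiff were used, per the submitters' processing notes. For the versions, settings and annotation, and for strand and reads with several matches, the answer is not given in the sources used here. In all 25759 gene rows were read, as many blank rows were dropped, and 24876 IDs were matched to a symbol. The FPKM values do not resolve into whole reads, so depth is unknown and no count test was run.

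Values were analysed as log2(FPKM + 1), computed here from the FPKM the authors deposited, after a filter at a mean of 0.5 FPKM over the 9 libraries. limma 3.58.1 (R 4.3.3) was fitted with an intensity trend to all 9 libraries at once, two-sided, with Benjamini-Hochberg adjustment over the 15126 genes that passed and calls at an adjusted p under 0.05, for 2 comparisons. Ratios of means are on the FPKM scale. The script was tested on simulated data.

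The 10 genes, the other zinc genes and the further lists were chosen with earlier results of these data known. All 10 are named, as are the other zinc genes with a group mean of at least 5 FPKM or a call, and, of each further list, up to 2 called genes per direction with the largest difference at that level. Slc39a8, Selenow, Steap3 and the genes under the filter were named beyond that rule. Gene positions and transcripts are from GENCODE M21 and promoter windows from RefSeq. Alternatives were the pseudocount, the filter, scaling by median of ratios or quantiles, array weights, a replicate term, only the 6 libraries compared, and leaving out each library.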

Additional observations from a re-analysis of the deposited data

How the results depend on the processing

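No value of the 21 zinc genes fitted was called in opposite directions under any of the 17 alternatives. For activated minus naive WT, 161 of 170 values of the 10 genes stayed on their side of the threshold, and the other 9 are those of Slc39a14. Of 186 values of the other zinc genes 168 did so, 12 lost a call and 6 gained one, and a filter at a mean of 2 FPKM did not test Mt3. For knockout minus activated WT, 155 of 170 and 183 of 186 values stayed on their side. Differences near 0 that were never called changed sign in some alternatives: that of Slc39a9 on activation, between -0.10 and 0.03, and those of Mt1, Slc39a1, Slc30a4, Slc30a6 and Slc39a3 in the knockout. The number of genes called there, 626, was 306 with median-of-ratios scaling, 324 with quantile normalization, 3851 with array quality weights, 92 with only the 6 libraries compared, and 64 to 1037 on leaving out 1 library each. The share of these calls that were higher was 79.7%, against 54.2% with median-of-ratios scaling and 56.5% with quantile normalization. Of the 10 genes, 1 was called there, against 0 with no filter, with either scaling and with only the 6 libraries, 3 with array quality weights and 0 to 2 on leaving out 1 library each. Of the other zinc genes 0 were called, against 2 with array quality weights and 0 to 1 on leaving out 1 library each. Some of these fits held fewer libraries or genes, and the cause of the changes was not tested.

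Whether the replicate numbers pair the libraries was not settled, since correlations as weak as these cannot decide it. Deviations from the group means of same-numbered libraries correlated at 0.0395, 0.0443 and 0.054 for naive and activated WT. There each library correlated best with its own number, and unlike-numbered pairs ran from -0.0429 to 0.00331. For activated WT and knockout the same-numbered correlations were 0.0137, 0.0344 and 0.0027. Here knockout 1, knockout 3 and activated WT 3 each correlated better with another number. With a replicate block 7447 genes were called for activated minus naive WT and 58 for knockout minus activated WT, and 0 of the 10 genes and 0 of the other zinc genes in the latter. Under the block the calls of Slc39a14 on activation and of Slc39a6 in the knockout were lost. Depth is unknown, so the counting error of levels near 0 FPKM, such as those of Mt1, Mt2 and Mt3 in naive cells, could not be given.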
